A study of Rattus norvegicus with 6 samples.

Results

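Gene expression in the lateral ventricular choroid plexus of Sprague-Dawley rats was compared across birth, between embryonic day 19 (E19) and postnatal day 2 (P2), on Affymetrix rat genome arrays. The 4 arrays of these stages, 2 per stage, were taken from a series of 6, whose other 2 arrays are adult plexus and serve here as a reference. No animal carried a transgene or received an experimental treatment, and the stages differ only in age as far as the labels say. The paper reports isoflurane anaesthesia of the pregnant rats whose fetuses were taken and names no anaesthetic for the pups. By the labels each array measured RNA from a separate batch of 6 to 10 plexuses of several animals, so that the spread between the 2 pools of a stage understates the spread between single animals. The paper reports fewer animals in an adult pool than in a fetal or newborn pool. Probe sets that were not controls and reached a mean of 100 units at E19 or at P2 were compared, which left 17182 of 31099 probe sets. These covered 10119 of the 14217 genes with a probe set of their own, each gene represented by its brightest probe set over the 4 arrays. Positive log2 differences mean higher at P2 throughout, intensities are in the units of the deposited table, and values after ± are standard errors of the fit.

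The choroid plexus is a vascular fold covered by an epithelium that secretes cerebrospinal fluid (CSF). The epithelium pumps sodium, chloride and bicarbonate, is sealed by tight junctions, and carries transporters and enzymes that remove or inactivate unwanted compounds. Beneath it lie fenestrated capillaries, fibroblasts and resident macrophages. Around birth a rat passes from placental supply to breathing and to fat-rich milk.

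The tissue label was borne out by its defining markers at both stages. Transthyretin (Ttr), the thyroxine carrier of the plexus, stood at 12749.9 and 13345 units at E19 and 12702 and 10837 units at P2, and the serotonin receptor gene Htr2c at 15659.5 and 15773 units at E19 and 15221 and 14639.6 units at P2. The transcription factor gene Otx2 stood at 12251 and 12608 units at E19 and 11278 and 11174 units at P2. Neuron genes were low: of 24 neuron genes on the array, 8 reached the minimum of 100 units, and the neuronal markers Rbfox3, Dcx, Syt1, Gad1 and Slc17a7 did not. All 4 arrays had a trimmed mean of 499.98 units, and between 52.7 and 53.5% of probe sets lay at or above 100 units. The ratio of 3′ to 5′ signal of actin, a sign of RNA length, was 2.95 and 2.93 on the E19 arrays and 2.54 and 2.09 on the P2 arrays, and P2 pool 2 was the lowest of the 4. That of Gapdh lay between 1.12 and 1.21. The sex of the pooled fetuses and pups is not given in the labels. The X-inactivation transcript Xist and the Y-linked gene Eif2s3y were both read in all 4 pools, Xist at 926 and 1623 units at E19 and 1097 and 1608 units at P2 and Eif2s3y at 1069.7 and 542 units at E19 and 1152 and 481 units at P2. Neither was called, and the adult pools read 3.35 and 0.934 units for Xist.

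Between E19 and P2, 415 genes rose (4.1% of the genes tested) and 298 fell (2.94%). A gene was called where the adjusted p of limma was under 0.05 and both pools of a stage lay on the same side of both pools of the other. Over probe sets, 707 rose (4.11%) and 697 fell (4.06%). The changes were moderate in size. The median fold change of the called genes was 1.66 upwards and 1.65 downwards, with 107 rising and 74 falling genes changed at least 2-fold, and 9 and 14 at least 4-fold. With genes under 100 units at one stage set to their bound, the medians were 1.62 and 1.6, and 84 and 59 changed at least 2-fold and 4 and 11 at least 4-fold. Both P2 pools lay above both E19 pools for 3350 genes (33.1%) and below them for 3071 (30.3%), so that a pair of pools that do not overlap was common. Pools of a stage differed more than 2-fold at 0.396% of the tested probe sets at E19 and 1.01% at P2, and pools of different stages at 4.48 to 4.88%. The calls need all 4 arrays: without E19 pool 1, E19 pool 2, P2 pool 1 or P2 pool 2 no gene passed, the smallest adjusted p being 0.081, 0.0821, 0.0517 and 0.0703 in turn. At an unadjusted p under 0.05, 1542 genes were higher and 1215 lower with all arrays, and 962 to 1203 and 683 to 1090 with 1 array left out. The plot of log2 difference against intensity shows the calls over the whole range.

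**Figure D1:**
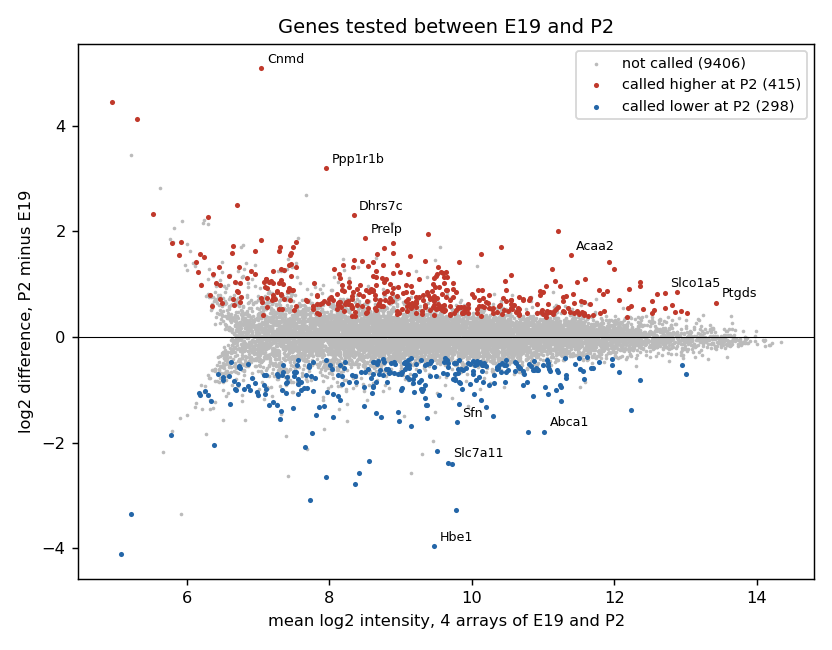
Log2 difference, P2 minus E19, of 10119 genes against their mean log2 intensity over the 4 arrays. Red points are the 415 genes called higher and blue points the 298 called lower at P2, with some named genes labelled; most called genes lie within 2 log2 units of no change.

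The largest increases among genes at or above 100 units on all 4 arrays were those of Dhrs7c, a short-chain dehydrogenase gene, and Emb. Dhrs7c stood at 130.2 and 164 units at E19 and 679 and 764 units at P2 (log2 difference 2.30 ± 0.14, adjusted p = 0.0125). Emb encodes embigin, a membrane partner of monocarboxylate carriers, and stood at 1227 and 1145 units at E19 and 4757 and 4807 units at P2 (log2 difference 2.01 ± 0.11, adjusted p = 0.0125). The secreted matrix protein gene Spon1 rose from 368 and 313 to 1330.1 and 1293 units (log2 difference 1.95 ± 0.11, adjusted p = 0.0125) and was at 62.7 and 62.4 units in the adult pools. Serpina6, the gene of corticosteroid-binding globulin, stood at 245 and 271 units at E19 and 698 and 1107 units at P2 (log2 difference 1.77 ± 0.23, adjusted p = 0.0225). Vav3, which encodes a guanine nucleotide exchange factor, rose from 805 and 711 to 2066 and 2896 units (log2 difference 1.69 ± 0.18, adjusted p = 0.0197) and lay at 10383 and 9559.9 units in the adult. The secretoglobin gene Scgb1c1 went from 269 and 222 to 722 and 844 units (log2 difference 1.68 ± 0.13, adjusted p = 0.0142), with 8474 and 8444 units in the adult. In each of these 6 genes, as the call demands of every called gene, both P2 pools were clear of both E19 pools. The remaining genes of the 15 largest increases were Prelp, Il18bp, Ecm2, Nom1, Acaa2, C1qtnf3, Gpnmb, Rufy1 and Cmtm5, with log2 differences from 1.44 to 1.87. The adult plexus lay above P2 for most of these 9, and for Nom1, Acaa2 and Rufy1 below it. For Nom1 the other tested probe set was not called.

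Hbe1, an embryonic globin gene, had the largest fall among genes at or above 100 units on all 4 arrays and is described with the red cell genes. Fam111a, which encodes a protease that acts at replication forks, came next with 2675 and 2798 units at E19 and 286 and 276 units at P2 (log2 difference -3.28 ± 0.16, adjusted p = 0.0125) and returned to 2530.1 and 1876 units in the adult. Grifin, a galectin-related gene first known from the lens, stood at 863 and 863 units at E19 and 128 and 124 units at P2 (log2 difference -2.78 ± 0.36, adjusted p = 0.0224). Car8, a carbonic anhydrase relative without catalytic activity, fell from 1937 and 1955 to 339.6 and 396 units (log2 difference -2.41 ± 0.24, adjusted p = 0.019) and read 41.3 and 25.1 units in the adult. The actin-associated protein gene Palld fell from 1574 and 1533 to 384 and 312 units (log2 difference -2.17 ± 0.20, adjusted p = 0.0167). Setd1b, the gene of a histone methyltransferase, fell from 976 and 1052 to 318 and 310.3 units (log2 difference -1.69 ± 0.11, adjusted p = 0.0125) and stood at 1037 and 1216 units in the adult. The other genes of the 15 largest falls were Slc7a11, Fstl4, Egfl6, Slc7a1, Abca1, Sfn, Wscd1, Iqca1 and Greb1, with log2 differences from -2.38 to -1.51. Slc7a11, Slc7a1, Abca1 and Sfn return below with their groups.

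Some genes passed 100 units on both arrays of one stage only, so that their change is a bound against 100 units. They entered the test through that stage alone. The adjusted p beside a bound, here and below, comes from the limma fit to the deposited values. That fit includes the values under 100 units and does not test the bound. Cnmd, the gene of the cartilage and vessel protein chondromodulin, read 21 and 24.5 units at E19 and 499.6 and 1181 units at P2, at least 7.68-fold higher (adjusted p = 0.0142). Its P2 pools differed widely, and its fitted log2 difference, which is no bound, of 5.08 became 5.70 without P2 pool 1 and 4.46 without P2 pool 2. Ppp1r1b, which encodes the phosphatase inhibitor DARPP-32, read 74.1 and 91.4 units at E19 and 813 and 692 units at P2, at least 7.5-fold higher (adjusted p = 0.0125), and 2307 and 2522 units in the adult. The brightest of the others that rose were the chemokine gene Cxcl14 (at least 2.87-fold higher), Ly6i, Uhrf1, Cbr3, Bmp2, Pon1, Pmch and Rnf152, with bounds between 1.73 and 2.50 for the other 7. Pon1, the gene of a plasma lipolactonase, read 160.5 and 209 units at P2 and 2361 and 2610.2 units in the adult. Of the genes that fell below 100 units, the cadherin gene Cdh22 was the brightest at E19 (372 and 462 units) and read 97.1 and 97.7 units at P2, at least 4.14-fold lower (adjusted p = 0.0142). Nhsl2, Mmp16, Shc4, Osbp2, Iqck, Tyrp1, Cdk12, Esrrb and Hook3 followed, with bounds between 1.56 and 2.21. In all, 41 of the rising genes lay under 100 units on both E19 arrays and 32 of the falling genes under it on both P2 arrays.

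Red cell genes split into embryonic and adult globins. Whole choroid plexus holds blood, and in bulk tissue fewer cells of a type and less RNA per cell cannot be told apart. Of 22 erythroid genes on the array 14 were tested, 0 rose and 3 fell (background 4.1 and 2.94%). Hbe1, the embryonic epsilon globin, stood at 3170.3 and 2468 units at E19 and 176 and 185 units at P2 (log2 difference -3.96 ± 0.60, adjusted p = 0.0301) and at 28 and 7.46 units in the adult. Hbg1, another early beta-type globin, stood at 653 and 593 units at E19 and 135 and 72.6 units at P2 (log2 difference -2.65 ± 0.29, adjusted p = 0.0197). The alpha-haemoglobin stabilizing protein gene Ahsp fell from 1392 and 1423 to 689.7 and 494 units (log2 difference -1.27 ± 0.20, adjusted p = 0.0326). Both P2 pools lay below both E19 pools in these 3 genes, as the call demands. The adult-type globins read otherwise. Hbb, whose probe set may bind several near-identical beta-globin copies, stood at 18966 and 18694 units at E19 and 17435 and 16128 units at P2 (log2 difference -0.17 ± 0.09, adjusted p = 0.266, not called), and Hba-a3, an alpha globin, at 5163 and 4815 units at E19 and 4991 and 6042 units at P2 (log2 difference 0.14 ± 0.14, adjusted p = 0.561, not called). The anion exchanger of red cells, Slc4a1, stood at 499 and 413 units at E19 and 226 and 256 units at P2 and the blood group gene Kel at 153 and 135 units at E19 and 76.1 and 76.2 units at P2, both lower in both P2 pools and neither called. The defining transcription factor genes Gata1 and Klf1 stayed under the minimum.

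The promoters of Hbe1 and Hbb are shown because these genes of 1 cluster read so differently across birth. RefSeq's table of build GRCr8 gives 300 bases for each, 250 before and 50 after the start, at chr1:167696231-167696530, minus strand for Hbe1 and chr1:167663672-167663971, minus strand for Hbb. Capitals mark the CCAAT box and the CACCC box, searched on both strands. The CACCC box was chosen after the values were seen.
Hbe1: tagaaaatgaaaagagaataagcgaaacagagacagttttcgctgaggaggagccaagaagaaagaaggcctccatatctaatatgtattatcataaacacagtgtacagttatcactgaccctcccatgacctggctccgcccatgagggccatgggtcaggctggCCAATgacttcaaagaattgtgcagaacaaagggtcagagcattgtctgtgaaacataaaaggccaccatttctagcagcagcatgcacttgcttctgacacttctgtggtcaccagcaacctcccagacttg
Hbb: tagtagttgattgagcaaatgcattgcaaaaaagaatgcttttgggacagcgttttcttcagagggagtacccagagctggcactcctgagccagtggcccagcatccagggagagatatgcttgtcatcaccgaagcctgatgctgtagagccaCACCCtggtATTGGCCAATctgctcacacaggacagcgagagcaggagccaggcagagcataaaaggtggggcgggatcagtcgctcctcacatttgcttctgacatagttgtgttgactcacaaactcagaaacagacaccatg
Hbe1 holds 1 CCAAT match, 83 bases before the start, and no CACCC. Hbb holds CACCC 95 bases before the start, and CCAAT on the printed strand 81 bases before it, next to a match on the other strand. The capitals of Hbb thus run together over 10 bases. CCAAT stands in 37.5% and CACCC in 54.9% of all 33469 promoters of that source on either strand. These matches are letters in a window and show no binding.

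**Figure D2:**
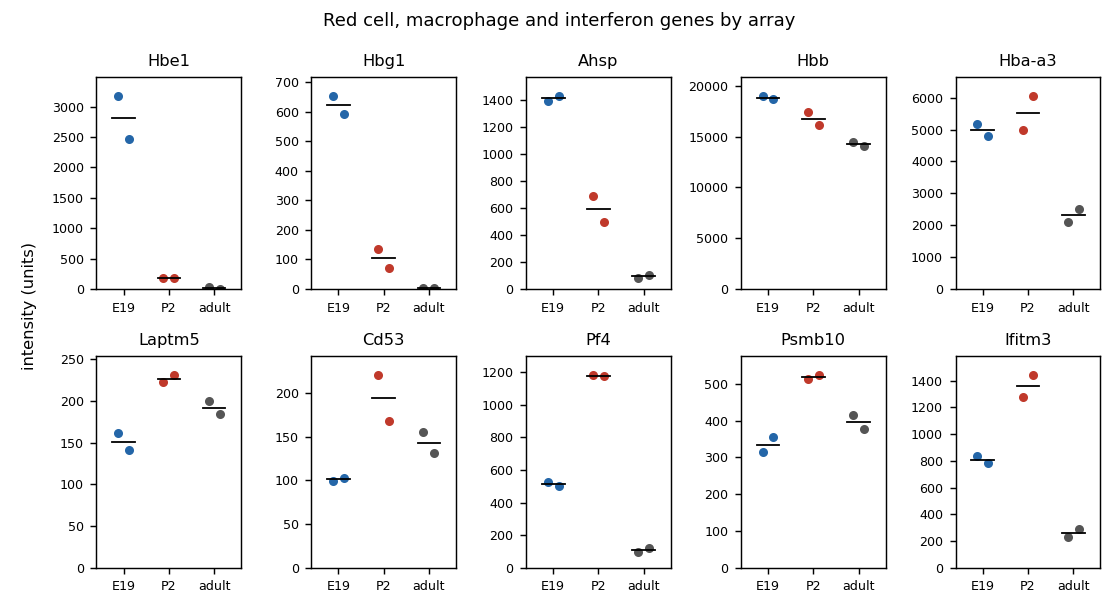
Intensity in units on each array for 5 red cell genes, 3 macrophage genes and 2 interferon-response genes; dots are pools, 2 per stage, bars are means, and each axis starts at 0. Hbe1, Hbg1 and Ahsp fall from E19 to P2 while Hbb and Hba-a3 were not called, and the 5 leukocyte and interferon genes are higher in both P2 pools.

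Some macrophage genes rose. Of 28 macrophage and myeloid genes on the array 20 were tested, 6 rose and 0 fell, against a background of 4.1 and 2.94%. In 17 of the 20 both P2 pools lay above both E19 pools (33.1% of all genes), and the median log2 difference of the list was 0.63, beside 0.01 over all genes. The summed intensity of the list was 6883 and 6985 units at E19 and 11451 and 10037 units at P2. Pf4, a platelet chemokine gene that resident macrophages also express, rose from 525 and 499 to 1180.0 and 1176 units (log2 difference 1.20 ± 0.13, adjusted p = 0.0197). Cd14, the co-receptor for bacterial endotoxin, went from 245 and 234 to 608 and 680.1 units (log2 difference 1.42 ± 0.10, adjusted p = 0.0125). Fcer1g, a signalling chain of Fc receptors, rose from 401 and 411 to 831 and 754 units (log2 difference 0.96 ± 0.09, adjusted p = 0.0167), and the calcium-binding protein gene Aif1 from 284 and 301 to 456 and 484 units (log2 difference 0.68 ± 0.10, adjusted p = 0.03). Cd53 and Laptm5, membrane proteins of leukocytes, rose by 0.92 and 0.59 on the log2 scale. The complement genes of macrophages did not follow: C1qb stood at 322 and 365 units at E19 and 348 and 344 units at P2 and C1qc at 342 and 410.5 units at E19 and 346 and 319 units at P2, neither called. Nor was the growth factor receptor gene Csf1r called, with 271 and 262 units at E19 and 351 and 283 units at P2, and Cx3cr1, Itgam and Cd163 lay under the minimum. The lysozyme gene Lyz2 stood at 956 and 952 units at E19 and 1988 and 1421 units at P2 (log2 difference 0.82 ± 0.17, adjusted p = 0.0504, not called), with 6048 and 6018 units in the adult.

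Some other immune genes rose as well. Of 43 antigen presentation and interferon-response genes on the array, 27 were tested, 4 rose and 0 fell (4.1 and 2.94% of all genes). Both P2 pools were higher in 18 of the 27 (33.1% of all genes), and the median log2 difference was 0.31, or 0.26 with genes under 100 units at one stage set to their bound. The immunoproteasome subunits Psmb9 and Psmb10 rose from 501 and 561 to 783 and 797 units (log2 difference 0.58 ± 0.10, adjusted p = 0.0344) and from 314 and 355 to 512 and 523 units (log2 difference 0.63 ± 0.10, adjusted p = 0.0339). Psmb8, their partner, stood at 163 and 149 units at E19 and 282 and 342 units at P2 (log2 difference 1.00 ± 0.27, adjusted p = 0.0873, not called). Ifitm3, which restricts the entry of viruses, rose from 833 and 782 to 1276 and 1441 units (log2 difference 0.75 ± 0.14, adjusted p = 0.0427) and lay at 231 and 289.9 units in the adult. The class II gene RT1-Da rose from 88.8 and 111 to 189 and 219 units (log2 difference 1.03 ± 0.14, adjusted p = 0.0237). Many classic interferon targets were not read: Isg15, Mx1, Mx2, Ifit1, Ifit3, Oas1a and Cxcl10 stayed under the minimum, and Irf7 stood at 206 and 232 units at E19 and 233 and 229 units at P2. Of 13 tested complement genes 3 rose (4.1% of all genes), namely the protease genes C1r (log2 difference 0.49 ± 0.09, adjusted p = 0.0379) and Masp1 and the receptor gene C5ar1. Masp1 stood at 146 and 162 units at E19 and 358 and 272 units at P2 (log2 difference 1.02 ± 0.16, adjusted p = 0.0321), but the mean of all its probe sets gave -0.02. Of 11 tested chemokine and adhesion genes 3 rose (4.1% of all genes). Cxcl12 went from 827 and 894 to 1429 and 1379 units (log2 difference 0.71 ± 0.09, adjusted p = 0.0232), Cxcl16 from 444 and 408 to 752 and 777 units (log2 difference 0.84 ± 0.12, adjusted p = 0.0267), and Cxcl14 as given above. Among neutrophil genes Cybb, an oxidase subunit also made by macrophages, rose from 114 and 144 to 223 and 200.2 units (log2 difference 0.72 ± 0.15, adjusted p = 0.0486), while the granulocyte genes S100a9 and S100a8 stood at 429.8 and 459.6 units at E19 and 82.6 and 217 units at P2 and at 239.8 and 242 units at E19 and 69.4 and 140.0 units at P2, neither called.

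The promoters of the immunoproteasome gene Psmb10 and of Ifitm3 are shown because they are the called genes of the interferon list that hold an interferon-stimulated element. They come from the same table of GRCr8, at chr19:50743243-50743542, minus strand and chr1:205541709-205542008, minus strand. Capitals mark the element, 2 copies of TTTC with any 2 bases between them, or its reverse complement, GAAA in place of TTTC.
Psmb10: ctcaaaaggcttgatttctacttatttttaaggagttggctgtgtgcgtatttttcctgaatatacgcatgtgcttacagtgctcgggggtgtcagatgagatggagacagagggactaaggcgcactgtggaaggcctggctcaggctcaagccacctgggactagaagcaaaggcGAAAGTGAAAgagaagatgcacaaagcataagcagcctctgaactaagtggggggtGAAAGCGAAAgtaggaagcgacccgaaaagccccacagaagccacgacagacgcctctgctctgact
Ifitm3: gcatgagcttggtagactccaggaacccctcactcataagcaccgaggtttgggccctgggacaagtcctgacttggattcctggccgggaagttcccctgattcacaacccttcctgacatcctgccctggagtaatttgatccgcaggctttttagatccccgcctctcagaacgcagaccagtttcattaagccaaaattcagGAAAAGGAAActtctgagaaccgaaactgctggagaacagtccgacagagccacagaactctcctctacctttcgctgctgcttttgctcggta
Psmb10 holds 2 matches, 73 and 17 bases before the start, and Ifitm3 holds 1, 44 bases before it. The element stood in 3.92% of all promoters, in 2 of the 4 called genes of the list and in 16 of its 24 tested genes with a promoter. Many of those 16, such as Irf7, Rsad2 and Tap2, were not called. Searches of the other lists found no match in a called gene for the CHR element TTTGAA (cell cycle), the sterol regulatory element (cholesterol synthesis), the glucocorticoid element ACANNNTGT or the E-box CACGTG (clock), which stood in 18.3, 0.125, 6.86 and 6.42% of all promoters. With at most 2 called genes with a promoter per list, these searches say little.

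Some pump and ion carrier genes of the secreting epithelium rose. Of 27 genes of CSF secretion and ion transport on the array, 23 were tested, 5 rose (background 4.1%) and 1 fell (2.94%). Fxyd1, phospholemman, which regulates the sodium pump, rose from 2277 and 2504 to 6095 and 6678 units (log2 difference 1.42 ± 0.16, adjusted p = 0.0198). The pump's beta subunit genes rose as well. Atp1b1 went from 5558 and 5728 to 10418 and 9903 units (log2 difference 0.85 ± 0.08, adjusted p = 0.0172), Atp1b2 from 378 and 331 to 640.5 and 621 units (log2 difference 0.83 ± 0.10, adjusted p = 0.0205) and Atp1b3 from 4032 and 4054 to 5264 and 5291 units (log2 difference 0.38 ± 0.08, adjusted p = 0.0496). All 4 genes were higher still in the adult pools, Atp1b1 at 16571 and 16423 units. Slc4a10, a sodium-bicarbonate carrier of the basolateral membrane, rose from 2014 and 1986 to 4395 and 3831 units (log2 difference 1.04 ± 0.11, adjusted p = 0.0197) and lay at 10629 and 12100.3 units in the adult. Its relative Slc4a7 fell from 2353 and 2268 to 1558 and 1440.0 units (log2 difference -0.63 ± 0.09, adjusted p = 0.027). The water channel gene Aqp1 stood at 9582 and 9550.4 units at E19 and 9706 and 9552 units at P2, the carbonic anhydrase gene Car2 at 13244 and 13429.5 units at E19 and 13059 and 12776 units at P2 and the cotransporter gene Slc12a2 at 8019 and 7582 units at E19 and 8901 and 8631 units at P2, none of them called.

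A few epithelium markers rose as well. Of 25 on the array 23 were tested, 4 rose, Slc4a10 among them, and 0 fell (4.1 and 2.94% of all genes), and the median log2 difference was -0.003. Cldn2, a claudin that forms a pore for cations, rose from 2617 and 2573 to 4581 and 5102 units (log2 difference 0.90 ± 0.10, adjusted p = 0.0197), with 8881 and 9627 units in the adult. Msx1, a homeobox gene, rose from 6587 and 6727 to 9603 and 9016 units (log2 difference 0.48 ± 0.09, adjusted p = 0.0407), and the metalloreductase gene Steap1 from 2889.6 and 2762 to 5171 and 5098 units (log2 difference 0.86 ± 0.09, adjusted p = 0.0186). Among 16 tested tight junction genes of the study, Cldn2 and F11r rose and 0 fell (4.1 and 2.94% of all genes). F11r, the junctional adhesion molecule A, went from 1191 and 1159 to 1871 and 1931 units (log2 difference 0.69 ± 0.09, adjusted p = 0.0233). Ocln stood at 4471 and 4614 units at E19 and 4569 and 4310.0 units at P2, Cldn1 at 4912 and 5539.6 units at E19 and 5606 and 4594 units at P2 and Tjp1 at 4161 and 3715 units at E19 and 3097 and 3251 units at P2, none of them called. The receptor gene Prlr stood at 635 and 816 units at E19 and 939.8 and 1091 units at P2 (log2 difference 0.49 ± 0.15, adjusted p = 0.113, not called).

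**Figure D3:**
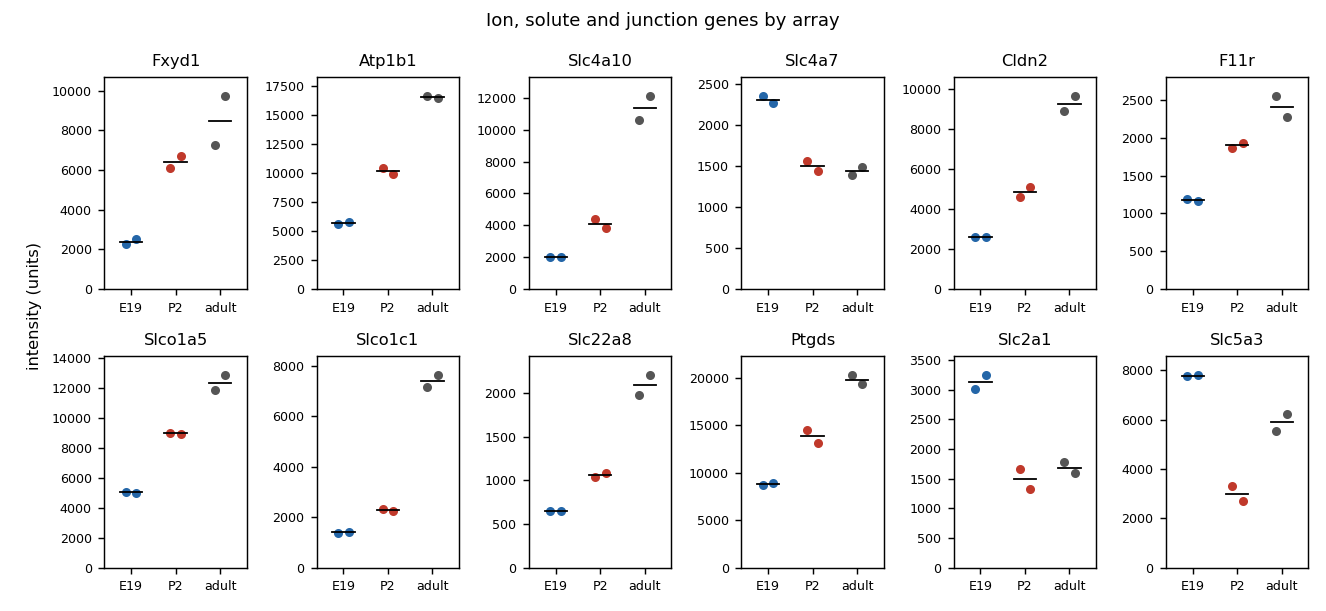
Intensity in units on each array for 12 genes of ion transport, junctions, solute carriers and CSF proteins; dots are pools, 2 per stage, bars are means, and each axis starts at 0. Slc4a7, Slc2a1 and Slc5a3 are lower and the other 9 genes higher in both P2 pools than in both E19 pools.

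Some organic anion transporters of the blood-CSF barrier rose. Of 31 efflux and organic anion transporter genes of the study on the array 22 were tested, 5 rose and 0 fell (4.1 and 2.94% of all genes). The Slco genes encode uptake carriers for bile salts, steroids and thyroid hormone. Slco1a5 rose from 5053 and 5002 to 9019.6 and 8919 units (log2 difference 0.84 ± 0.09, adjusted p = 0.0192) and Slco1c1, the thyroxine carrier, from 1376 and 1422 to 2324 and 2239.7 units (log2 difference 0.71 ± 0.08, adjusted p = 0.0205). Slco1a4 rose from 109 and 90.6 to 397 and 301 units (log2 difference 1.80 ± 0.17, adjusted p = 0.0169) and lay at 229.8 and 228 units in the adult. Slc22a8, the organic anion transporter 3, rose from 652 and 652 to 1039 and 1083 units (log2 difference 0.70 ± 0.09, adjusted p = 0.0229), and Slc22a7 from 87 and 69.3 to 155 and 183 units (at least 1.69-fold higher, adjusted p = 0.0228). None of the Abc genes of the list was called, among them Abcc1 at 1007 and 1016 units at E19 and 1112 and 922 units at P2 and Abcc4 at 352 and 379.9 units at E19 and 406 and 385 units at P2. Of 24 tested drug-metabolizing genes 3 rose (4.1% of all genes): the glutathione transferase genes Gsta1 (log2 difference 0.81 ± 0.09, adjusted p = 0.0197) and Gstm1 (log2 difference 0.55 ± 0.10, adjusted p = 0.0374) and the sulfotransferase gene Sult1a1, which went from 3652 and 3906 to 8194 and 6654 units (log2 difference 0.97 ± 0.13, adjusted p = 0.0233). Among 17 antioxidant genes Sod3, the extracellular superoxide dismutase, rose from 1442 and 1435 to 2994 and 4053 units (log2 difference 1.28 ± 0.16, adjusted p = 0.0208), and Hmox1, haem oxygenase 1, fell from 793 and 827 to 326 and 284 units (log2 difference -1.41 ± 0.20, adjusted p = 0.0243). The xenobiotic receptor gene Nr1i2 was the only called one of 5 tested transcription factors, with 59.5 and 61.5 units at E19 and 101 and 110.0 units at P2 (at least 1.06-fold higher, adjusted p = 0.0431). Probe sets of Slco1a4, Slco1a5, Gsta1, Gstm1, RT1-Da, Ifitm3 and Hspa1a may also bind close relatives of these genes, which was not tested.

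Some solute carriers outside these lists moved, in both directions. This set was written after the values were seen. Of its 14 tested genes 4 rose and 3 fell (4.1 and 2.94% of all genes), and 7 were not called. Slc5a3, the sodium-myo-inositol carrier, fell from 7757 and 7799 to 3304 and 2694 units (log2 difference -1.38 ± 0.13, adjusted p = 0.0171) and rose again to 5549.5 and 6223 units in the adult. Slc13a3, a dicarboxylate carrier, fell from 398 and 357 to 125 and 146 units (log2 difference -1.48 ± 0.12, adjusted p = 0.0143) and the zinc carrier Slc30a2 from 444 and 331 to 197 and 169 units (log2 difference -1.07 ± 0.17, adjusted p = 0.0337). In contrast the sulfate carrier Slc13a4 rose from 2442 and 2262 to 3782 and 3766 units (log2 difference 0.68 ± 0.09, adjusted p = 0.0214), with 12653 and 12239.5 units in the adult. The lactate and ketone body carrier Slc16a1 rose from 295 and 288 to 619 and 641 units (log2 difference 1.11 ± 0.19, adjusted p = 0.0347), Slc16a7 from 55.6 and 52.7 to 120.1 and 129 units (at least 1.24-fold higher, adjusted p = 0.0142) and Slc16a9 from 187 and 185 to 374 and 487 units (log2 difference 1.20 ± 0.15, adjusted p = 0.0209).

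Among 22 tested genes of secreted CSF proteins 4 rose and 0 fell (4.1 and 2.94% of all genes). Ptgds, the lipocalin-type prostaglandin D synthase, rose from 8736 and 8907 to 14549 and 13126 units (log2 difference 0.65 ± 0.09, adjusted p = 0.0257). Cp, ceruloplasmin, rose from 517 and 586 to 1238 and 1011 units (log2 difference 1.02 ± 0.15, adjusted p = 0.0284), and the protease inhibitor gene A2m from 1752 and 1666 to 2433 and 2301 units (log2 difference 0.47 ± 0.09, adjusted p = 0.044). Apoe went from 2604 and 2661 to 3527 and 3548 units (log2 difference 0.43 ± 0.08, adjusted p = 0.0406) and read 1254 and 1232 units in the adult. The growth factor gene Igf2 stood at 13696 and 12819 units at E19 and 12865 and 12573 units at P2 and its binding protein gene Igfbp2 at 17421 and 18703 units at E19 and 18142 and 16633 units at P2, neither called, while Igf1 rose from 517 and 468 to 972 and 819.7 units (log2 difference 0.86 ± 0.12, adjusted p = 0.024). Iron and copper genes that rose, beside Cp, were the haemochromatosis gene Hfe, from 496 and 471 to 833 and 834 units (log2 difference 0.79 ± 0.08, adjusted p = 0.0194), and the metalloreductase gene Steap4, from 86.6 and 118 to 320.4 and 289 units (log2 difference 1.59 ± 0.18, adjusted p = 0.0198). Hmox1 was the called gene of that list of 18 that fell.

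Stromal genes changed in a few members, beside 4.1% of all genes called higher and 2.94% lower. Among 29 tested fibroblast and fibrillar matrix genes Postn, periostin, rose from 2109.6 and 2143 to 2867 and 3059 units (log2 difference 0.48 ± 0.08, adjusted p = 0.0379) and Col6a1 from 312 and 341 to 684 and 621 units (log2 difference 1.00 ± 0.15, adjusted p = 0.03). The fibrillar collagens were not called: Col1a1 stood at 1050.3 and 1080.5 units at E19 and 1209 and 734 units at P2 and Col3a1 at 5506 and 5392 units at E19 and 5541 and 4697 units at P2. P2 pool 2 was the lowest of the 4 arrays for Fn1 (1726 and 1621 units at E19 and 1787 and 1038 units at P2), Fbn1 (2340.3 and 2156 units at E19 and 2101 and 1071 units at P2) and Col6a3 (1851 and 1655 units at E19 and 2109.9 and 959.9 units at P2). The small leucine-rich proteoglycans, which bind collagen fibrils, were written as a list after the values were seen. Of its 8 tested genes 3 were called higher and 0 lower (4.1 and 2.94% of all genes), and both P2 pools lay above both E19 pools in all 8 (33.1% of all genes). Prelp rose from 199 and 179.7 to 751 and 639 units (log2 difference 1.87 ± 0.12, adjusted p = 0.0125), Ecm2 from 621 and 680.2 to 1966 and 1903 units (log2 difference 1.57 ± 0.10, adjusted p = 0.0125) and Omd from 108 and 108 to 283 and 285 units (log2 difference 1.39 ± 0.08, adjusted p = 0.0125). All 3 were higher in the adult, Prelp at 2829 and 2664 units. Dcn, decorin, stood at 1493 and 1913 units at E19 and 2910.3 and 3153 units at P2 and Lum, lumican, at 3111 and 2716 units at E19 and 3845 and 4046 units at P2, neither called. Of 17 tested basement membrane genes Lama2 alone rose, from 2415 and 2314 to 3339 and 3095 units (log2 difference 0.44 ± 0.09, adjusted p = 0.0453). In 9 of the 17 both P2 pools lay below both E19 pools (30.3% of all genes), and in 2 above them (33.1%). The median log2 difference of the list was -0.23. Of 22 tested endothelium genes 2 rose and 0 fell, and the median log2 difference was -0.05. Both P2 pools lay below both E19 pools in 10 of the 22 (30.3% of all genes) and above them in 6 (33.1%). The 2 that rose were Sox17, a transcription factor gene of arterial endothelium, from 239 and 229 to 637 and 549 units (log2 difference 1.34 ± 0.11, adjusted p = 0.0142), and Egfl7, from 632 and 557 to 971 and 1234 units (log2 difference 0.88 ± 0.17, adjusted p = 0.0463). Pecam1 stood at 350.0 and 344 units at E19 and 311 and 324 units at P2 and Kdr at 4106 and 3920.0 units at E19 and 3414 and 3013 units at P2, neither called. Of 11 tested mural genes Tagln rose, from 11.2 and 7.81 to 131 and 203 units, at least 1.63-fold higher (adjusted p = 0.0198).

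Some genes of fat use rose. Of 33 fatty acid oxidation and ketone body genes on the array 29 were tested, 5 rose and 0 fell (4.1 and 2.94% of all genes), with both P2 pools higher in 20 (33.1% of all genes) and a median log2 difference of 0.17. Acaa2, the mitochondrial thiolase of the last step, rose from 1506 and 1628 to 4803 and 4372 units (log2 difference 1.55 ± 0.10, adjusted p = 0.0125) and was back at 1788 and 1673 units in the adult. Its second tested probe set was not called. Decr1, a reductase for unsaturated fatty acids, went from 4503 and 4548 to 7033 and 6049 units (log2 difference 0.53 ± 0.10, adjusted p = 0.0456), and the ketone body enzyme gene Bdh1 from 201 and 234 to 461 and 429.9 units (log2 difference 1.04 ± 0.11, adjusted p = 0.0197). Acot2, a mitochondrial thioesterase, and Etfb, which passes electrons on from the oxidation, rose by 0.51 and 0.44 on the log2 scale. Angptl4, an inhibitor of lipoprotein lipase, stood at 407 and 430.5 units at E19 and 1592 and 1151 units at P2 (log2 difference 1.69 ± 0.48, adjusted p = 0.0935, not called), Acot1 at 425 and 436 units at E19 and 1314 and 1067 units at P2 (log2 difference 1.46 ± 0.37, adjusted p = 0.0768, not called) and Pdk4, which spares pyruvate, at 391 and 509 units at E19 and 1296 and 748 units at P2 (log2 difference 1.14 ± 0.29, adjusted p = 0.0746, not called). All of these 3 had both P2 pools higher, and the adult pools read 16.9 and 46 units for Angptl4 and 24.9 and 55.1 units for Acot1. Cpt1a, the entry step, stood at 2799 and 2781 units at E19 and 3607 and 2702 units at P2. None of 67 tested respiratory chain and ATP synthase genes was called by limma, and 5 were higher and 2 lower at an unadjusted p under 0.05.

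Sterol and lipid genes that respond to liver X receptors were listed after the values were seen. Of 15 tested, 6 fell and 2 rose (2.94 and 4.1% of all genes), and 7 were not called. Abca1, which loads cholesterol on to lipoproteins, fell from 3973 and 3755 to 1309.8 and 952 units (log2 difference -1.79 ± 0.17, adjusted p = 0.0172) and stood at 2921 and 2583 units in the adult. Of its 3 other tested probe sets 1 fell as well and none rose. Abcg5, a sterol exporter, fell from 2113 and 2101 to 808 and 688 units (log2 difference -1.50 ± 0.11, adjusted p = 0.0136), Abcg1 from 2412 and 2291 to 1493 and 1626 units (log2 difference -0.59 ± 0.10, adjusted p = 0.033) and Srebf1, the regulator of lipid synthesis, from 2531 and 2156 to 1519 and 1511 units (log2 difference -0.62 ± 0.12, adjusted p = 0.0433). Acaca and Scd2, enzymes of fatty acid synthesis, fell as well (log2 differences -0.58 ± 0.11 and -0.54 ± 0.10), and Srebf1 and Scd2 were higher in the adult than at E19. Apoe rose, as given above, and Apoc1 went from 100.4 and 103 to 316 and 197 units (log2 difference 1.29 ± 0.23, adjusted p = 0.0389). The receptor genes Nr1h2 and Nr1h3 stood at 469.5 and 474 units at E19 and 553 and 565 units at P2 and at 102 and 149 units at E19 and 132 and 118 units at P2, neither called. Of 20 tested genes of cholesterol synthesis, Nsdhl rose, from 252 and 318 to 495 and 554 units (log2 difference 0.89 ± 0.14, adjusted p = 0.0335), and 0 fell (4.1 and 2.94% of all genes).

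Amino acid carriers and enzymes of the amino acid response were again listed after the values were seen. Of 23 tested, 6 fell and 0 rose (2.94 and 4.1% of all genes), and 17 were not called. Slc7a11, which exchanges glutamate for cystine, fell from 1899 and 1808 to 609.7 and 208 units (log2 difference -2.38 ± 0.49, adjusted p = 0.0499). Its P2 pools lay far apart, and the log2 difference was -3.15 without P2 pool 1 and -1.60 without P2 pool 2. Slc7a1, the carrier of cationic amino acids, fell from 2999.8 and 3599 to 1344 and 670.3 units (log2 difference -1.79 ± 0.33, adjusted p = 0.0414) and read 239.6 and 217 units in the adult. The other tested probe set of Slc7a1 was not called. Psat1, of serine synthesis, fell from 3375 and 3302 to 2567 and 2471 units (log2 difference -0.41 ± 0.08, adjusted p = 0.0458), Cth, which makes cysteine, to 83.8 and 114 units (log2 difference -0.99 ± 0.19, adjusted p = 0.043), and the glutathione-degrading enzyme gene Chac1 from 169.6 and 184 to 105 and 109.5 units (log2 difference -0.72 ± 0.11, adjusted p = 0.0299). The regulator gene Atf4 stood at 3937 and 3631 units at E19 and 4545 and 4976 units at P2 and Asns, its target, at 401 and 385 units at E19 and 338 and 405 units at P2, neither called.

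**Figure D4:**
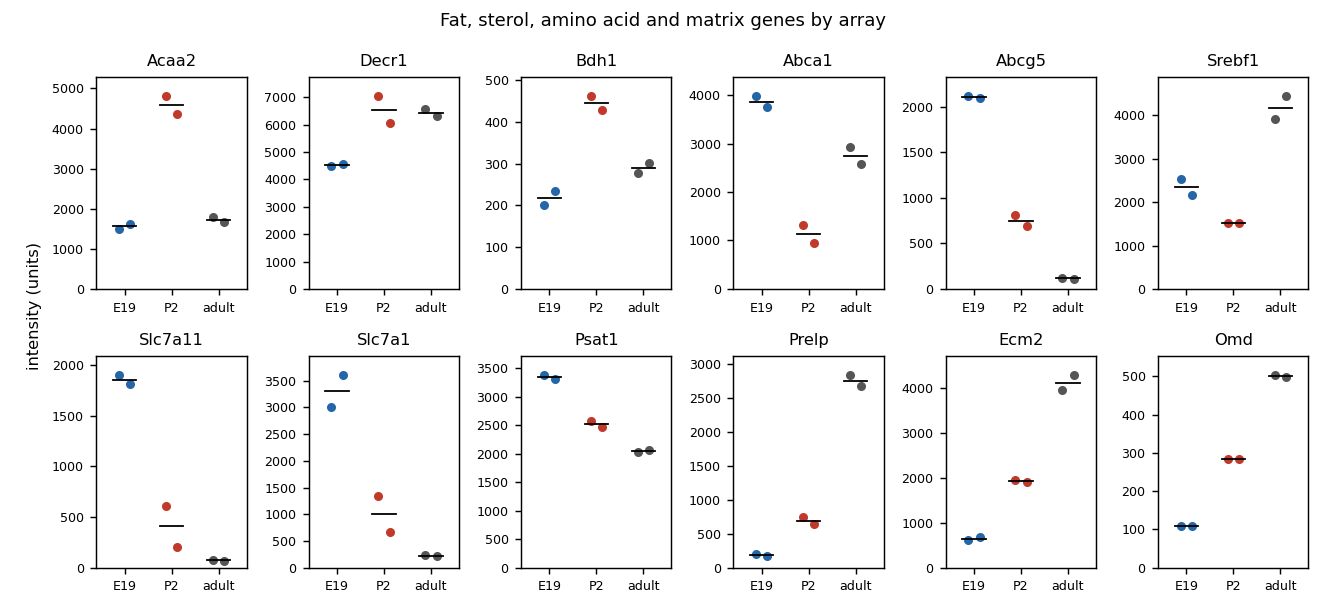
Intensity in units on each array for 12 genes of fatty acid oxidation, sterol handling, amino acid supply and matrix; dots are pools, 2 per stage, bars are means, and each axis starts at 0. Acaa2, Decr1, Bdh1, Prelp, Ecm2 and Omd are higher and Abca1, Abcg5, Srebf1, Slc7a11, Slc7a1 and Psat1 lower in both P2 pools.

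Some hypoxia-responsive and glucose genes fell. Of 20 tested hypoxia genes 4 fell and 0 rose (background 2.94 and 4.1%). Besides Hmox1 these were Ndrg1, from 879.8 and 918 to 502 and 408 units (log2 difference -0.99 ± 0.16, adjusted p = 0.0344), Ddit4, an inhibitor of the mTOR pathway, from 3276 and 3439 to 2092 and 1852 units (log2 difference -0.77 ± 0.10, adjusted p = 0.0215), and Ankrd37, from 516 and 477 to 333 and 282 units (log2 difference -0.70 ± 0.14, adjusted p = 0.0498). Vegfa stood at 1497 and 1728 units at E19 and 1734 and 2014 units at P2 and Adm at 177 and 213 units at E19 and 314 and 511 units at P2, neither called, and both P2 pools lay above both E19 pools. Slc2a1, the glucose carrier GLUT1, fell from 3018 and 3242 to 1658 and 1327 units (log2 difference -1.08 ± 0.14, adjusted p = 0.0224) and stayed at 1781 and 1591 units in the adult. Of 17 tested glycolysis and lactate genes Pfkp, a phosphofructokinase, rose from 375 and 369.6 to 622 and 575 units (log2 difference 0.68 ± 0.09, adjusted p = 0.0213), as did Slc16a1 and Slc16a7, while Ldha, Aldoa and Pgk1 were not called.

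Some genes typical of the fetus fell. Of 12 tested oncofetal RNA-binding and chromatin genes 3 fell and 1 rose (2.94 and 4.1% of all genes). Igf2bp2, which binds growth factor mRNA, fell from 2268 and 2102 to 1459.6 and 1223 units (log2 difference -0.71 ± 0.13, adjusted p = 0.0411), Igf2bp1 from 176 and 129 to 56.7 and 68.4 units (at least 1.51-fold lower, adjusted p = 0.0244), and the DNA methyltransferase gene Dnmt3a from 1144 and 1112 to 638 and 653 units (log2 difference -0.80 ± 0.09, adjusted p = 0.0198). Igf2bp3 stood at 407 and 499 units at E19 and 174 and 177 units at P2 (log2 difference -1.36 ± 0.32, adjusted p = 0.0654, not called). The one that rose was Uhrf1, a partner of the maintenance methyltransferase, from 64.3 and 75.4 to 306 and 204 units, at least 2.5-fold higher (adjusted p = 0.0205). Of 16 tested imprinted genes Plagl1 fell from 1110.2 and 1155 to 688 and 726 units (log2 difference -0.68 ± 0.09, adjusted p = 0.024) and Phlda2, a brake on placental growth, from 263 and 249 to 180.4 and 164 units (log2 difference -0.57 ± 0.09, adjusted p = 0.0329), and Nap1l5 rose. Grb10 and H19 had both P2 pools lower without being called, Grb10 at 4232 and 3892 units at E19 and 2172 and 2052 units at P2 (log2 difference -0.94 ± 0.34, adjusted p = 0.149, not called). Of 10 tested keratins and partners of other epithelia, put together after the values were seen, 6 fell and 0 rose (2.94 and 4.1% of all genes). Krt19 fell from 806 and 864 to 212 and 91.8 units (log2 difference -2.58 ± 0.42, adjusted p = 0.0335), Krt17 from 1056 and 983 to 428 and 409 units (log2 difference -1.28 ± 0.09, adjusted p = 0.0125) and Sfn, the 14-3-3 protein of stratified epithelia, from 1587 and 1519.8 to 549.5 and 468 units (log2 difference -1.61 ± 0.11, adjusted p = 0.0125). For Krt19 the log2 difference was -3.18 without P2 pool 1 and -1.98 without P2 pool 2. The plexus keratin genes Krt8 and Krt18 stood at 6947 and 7202 units at E19 and 7187 and 6932 units at P2 and at 8931 and 7621 units at E19 and 8241 and 7578 units at P2, neither called.

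Hormone-related, clock, immediate early and chaperone lists showed scattered calls, beside 4.1% of all genes called higher and 2.94% lower. Of 14 tested retinoid genes 1 rose and 2 fell, and of 10 tested thyroid hormone genes 1 rose and 2 fell. Both P2 pools lay below both E19 pools in 6 retinoid and 6 thyroid hormone genes (30.3% of all genes). They lay above them in 4 and 3 (33.1%). In retinoid handling Crabp2, a cellular retinoic acid-binding protein, fell from 10354 and 10654 to 6561 and 6339 units (log2 difference -0.70 ± 0.08, adjusted p = 0.0198) and Rlbp1, which binds retinaldehyde, from 7212 and 6807 to 4249.9 and 3720.3 units (log2 difference -0.82 ± 0.10, adjusted p = 0.0209), while Lrat, which esterifies retinol, rose from 67.5 and 58.4 to 125 and 122 units (at least 1.24-fold higher, adjusted p = 0.0197). Among thyroid hormone genes Slc7a8 fell from 1713 and 1557 to 962 and 1014 units (log2 difference -0.73 ± 0.10, adjusted p = 0.0228) and the corepressor gene Ncor1 from 1229 and 1324 to 898 and 863 units (log2 difference -0.54 ± 0.09, adjusted p = 0.033), against the rise of Slco1c1. Of 22 tested glucocorticoid genes Nr3c2, the mineralocorticoid receptor, rose from 296 and 329.6 to 521 and 501 units (log2 difference 0.71 ± 0.09, adjusted p = 0.0229), as did Sult1a1, and Ddit4 fell; the glucocorticoid receptor gene Nr3c1 stood at 1255 and 1182 units at E19 and 1382 and 1383 units at P2 and its target Fkbp5 at 408 and 350.2 units at E19 and 455 and 311 units at P2, neither called. Of 17 tested clock genes Hlf rose (log2 difference 0.83 ± 0.14, adjusted p = 0.0351) and Rora fell (log2 difference -0.69 ± 0.09, adjusted p = 0.0233). Among 17 immediate early genes Ier3 and Ier5 rose, Ier5 from 481 and 482 to 1019 and 1065 units (log2 difference 1.11 ± 0.09, adjusted p = 0.0142), and Fos stood at 317 and 405 units at E19 and 229 and 379 units at P2. The median log2 difference of that list was -0.27. Both P2 pools were lower in 9 of its genes and higher in 4 (30.3 and 33.1% of all genes). Among 23 chaperone and ER folding genes Herpud1 rose from 1066 and 1029 to 2138 and 1741 units (log2 difference 0.88 ± 0.12, adjusted p = 0.0245), Manf from 2251 and 2271 to 2989.9 and 3308 units (log2 difference 0.48 ± 0.09, adjusted p = 0.0433) and Hspa1a from 301 and 247 to 468 and 463 units (log2 difference 0.77 ± 0.13, adjusted p = 0.0348).

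Several large gene groups held few calls or none, beside 4.1% of all genes called higher and 2.94% lower. Of 46 tested cell cycle and replication genes Ccnd1, cyclin D1, rose from 1847 and 1787 to 2498 and 2487 units (log2 difference 0.46 ± 0.09, adjusted p = 0.043) and Tyms, thymidylate synthase, fell from 133 and 129 to 90 and 84.3 units (at least 1.31-fold lower, adjusted p = 0.0321). Both P2 pools lay below both E19 pools in 20 of the 46 (30.3% of all genes) and above them in 6 (33.1%). The median log2 difference of that list was -0.10. Mki67 stood at 960.1 and 979.6 units at E19 and 632 and 519.9 units at P2 (log2 difference -0.76 ± 0.22, adjusted p = 0.103, not called) and Cdk1 at 1707 and 1836 units at E19 and 1659 and 1865 units at P2, whereas the adult pools read 58.8 and 38.2 and 57.8 and 59.5 units. By limma no gene was called among 19 tested motile cilium genes, 40 ribosomal protein genes or 10 astrocyte and oligodendrocyte genes. At an unadjusted p under 0.05, 2 cilium genes were higher and 1 lower, 0 ribosomal genes higher and 0 lower, and 3 glial genes higher and 2 lower. Both P2 pools lay below both E19 pools in 30 of the 40 ribosomal protein genes (30.3% of all genes), with a median log2 difference of -0.09, and in 17 of them, with a median of -0.03, after quantile normalization. Hes1, a Notch target, rose from 1216 and 1203 to 1787 and 1918 units (log2 difference 0.61 ± 0.10, adjusted p = 0.0321) among 10 progenitor genes, and Gap43, a growth cone gene, from 70.3 and 63.8 to 141 and 197 units (at least 1.67-fold higher, adjusted p = 0.0228) among 8 neuron genes. In both lists several genes lay near 100 units. The plot of called shares sets the lists side by side.

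**Figure D5:**
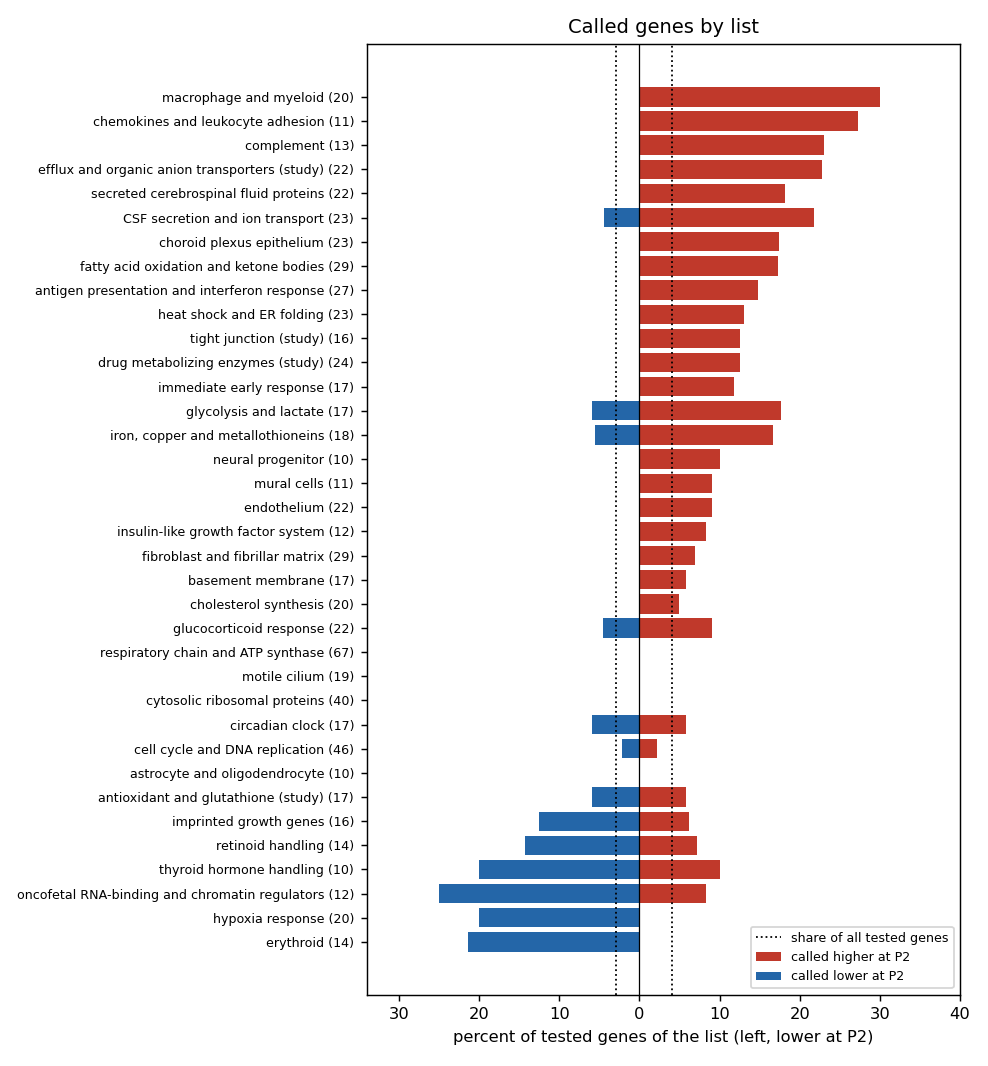
Share of tested genes called higher (red, right) and lower (blue, left) at P2 in each list with at least 10 tested genes, whose number is in parentheses. The 5 lists written after the values were seen are left out of the plot. Dotted lines mark the shares among all tested genes. Macrophage, chemokine, complement and transporter lists lie to the right, and erythroid, hypoxia and oncofetal lists to the left.

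The adult values are set beside these changes as a description. On the adult arrays the actin 3′ to 5′ ratio was 4.58 and 5.34, higher than on the E19 and P2 arrays. The paper's adult rats were males. The part of RNA length or sex in the adult values was not tested. Of the 415 genes that rose, the adult mean lay above P2 in 217, between E19 and P2 in 114 and at or below E19 in 84. Of the 298 that fell, it lay below P2 in 177, between the stages in 78 and at or above E19 in 43. Atp1b1, Slco1c1 and Cldn2 belong to those that went on rising, Spon1, Apoe and Pf4 to those that ended below E19, and Srebf1 and Scd2 to those that fell and ended above E19.

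Called genes differed in genomic length. The median length in GRCr8 was 24.6 kb over all tested genes, 20.3 kb for those that rose and 56.3 kb for those that fell. With the genes cut by length into 5 groups of equal size, 6.15% of the longest group, from 73.5 kb upwards, fell and 3.22% rose, and of the shortest, up to 8.28 kb, 2.28% fell and 5.25% rose. The median log2 difference went from 0.06 in the shortest to -0.08 in the longest group. P2 pool 2 minus P2 pool 1 went the same way, from 0.04 to -0.05, while E19 pool 2 minus E19 pool 1 stayed between -0.01 and 0.01. Against the E19 mean, P2 pool 1 alone went from 0.02 to -0.05 and P2 pool 2 from 0.08 to -0.10. The actin 3′ to 5′ ratio also moved with these arrays, as given above. The part of RNA quality in the falling calls of long genes was not tested.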

How the data were processed

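Signal intensities were deposited by the authors as 1 table, computed with Affymetrix Expression Console and MAS5 (versions not given in the sources used here) and scaled to a common trimmed mean per array. They were taken to log2 without further scaling. Probe sets were named through the array's annotation and RefSeq (GRCr8): 20832 had a single gene, 436 several, and 9780 of those that were not controls had none. All 6 arrays entered 1 linear model with limma 3.58.1 (R 4.3.3), which estimated a mean for each stage and had 3 residual and 2.24 prior degrees of freedom. The contrast P2 minus E19 was adjusted by Benjamini-Hochberg over 17182 probe sets. Precision is limited by 2 pools per stage. The procedure was tested on simulated data for this comparison (17182 probe sets). Changes of 1.5-fold were recovered in 2%, those of 2-fold in 50% and those of 4-fold in 100%, with 8 false among 134 calls. The simulated spread was drawn for each probe set around the root mean square spread of the E19 pools, and its typical value lay above that scale. The real P2 pools differed more than the E19 pools, and few probe sets were changed in the simulation. Among the real calls, 119 rising and 83 falling genes changed less than 1.5-fold. These rates may therefore not hold for the real arrays.

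Members and the 40 gene lists were chosen with earlier results of these data known, and 5 further lists after the values were seen. Named genes were the 15 largest changes per direction among called genes at or above 100 units on all 4 arrays, the 10 brightest per direction that lay under 100 units on both arrays of the other stage, and list members. Any gene of the 5 further lists that met none of these rules, and the uncalled genes given for contrast, were chosen after their values were seen. A fold against a stage with both arrays under 100 units is given as a bound, with 100 units in place of that stage. The adjusted p beside it belongs to the fitted log2 difference of the deposited values and not to the bound.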

Additional observations from a re-analysis of the deposited data

How the results depend on the processing

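Of 157 called genes named here or in the lists, those tested under an alternative kept their direction there, except Masp1, which reversed (log2 -0.02255) when the probe sets of a gene were averaged. Untested were 26 at a minimum of 200 units, 4 with averaged probe sets and 1 without P2 pool 2. The number of calls depended on the filter, the treatment of low values and the spread estimate; the cause was not tested. Higher and lower probe sets numbered 707 and 697 as reported, 0 and 0 with no filter (2443 and 2436 at an unadjusted p under 0.05), 1168 and 1225 with values under 100 units set to 100, 1113 and 1180 with 50 units added, 1384 and 1325 with an intensity trend, and 0 and 0 at an adjusted p under 0.01. For genes, 415 and 298 as reported, these counts were 0 and 0 (1270 and 970 unadjusted), 719 and 588, 688 and 558, 910 and 720, and 0 and 0. A minimum of 200 units gave 473 lower genes, and averaged probe sets gave 225 higher and 163 lower genes. Leaving out each of the 6 arrays in turn gave 0 to 707 higher and 0 to 731 lower probe sets, and 0 to 408 higher and 0 to 315 lower genes; the 0 arose without any 1 of the 4 arrays compared, and leaving out an adult array equalled a fit of the 4 arrays alone.

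The replicate block gave 203 higher and 166 lower probe sets, and 115 higher and 69 lower genes. Over all tested probe sets, pools of the same number did not deviate together (correlation -0.05 between E19 and P2). The sex-linked readings did follow the number: Xist was higher in pool 2 and Eif2s3y in pool 1 at both stages. Of the 157 genes, 74 stayed called with the block, 155 after quantile normalization, 142 after median centring, 148 with the minimum taken over any of the 3 stages and 98 with averaged probe sets. For Cnmd, Krt19 and Slc7a11, leaving out 1 P2 array moved the fold by over 1.5 times. Changes under 2-fold that missed the test are left undecided by 2 pools per stage.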

Other observations

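Of the 713 called genes, 547 rest on 1 tested probe set. The other 166 had another tested probe set, which was called in the same direction in 58 genes and in the opposite direction in 1, Azi2, named here after its values were seen. Probe sets without a single gene in the annotation held 177 calls higher and 227 lower among 3832 tested, and these are not described by gene.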
